A study of Mus musculus with 6 samples.

Results

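The insulin genes *Ins1* and *Ins2* and the islet amyloid polypeptide gene *Iapp* were examined in single cells of mouse islets, with the ratio of *Ins1* to *Ins2* as the main measure. The genes were taken by their symbols and are 3 of the 32285 genes in the count tables. They were measured in insulin-rich cells, defined as cells in which *Ins1* and *Ins2* together made up at least 25% of all unique molecular identifiers (UMIs, each standing for 1 captured RNA molecule), and in cells of other types below that share. Of 25567 cells kept after quality filters, 14142 were insulin-rich. WT libraries 1 to 3 gave 749, 4633, and 1757 of these cells, and KO libraries 1 to 3 gave 1745, 2269, and 2989. Some insulin-rich cells lay in clusters named for other types by their markers. The largest B cell–like cluster held 413 of them, and the larger T cell–like clusters held 173 and 139. Most of these were from KO library 2. They count in the insulin-rich values, and their part in the differences between libraries was not tested.

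Islets came from β14-3-3ζ–KO and WT mice, labelled C57/BL6 and aged 12 to 14 weeks, and were sequenced as 3 libraries per genotype. In the KO, loxP sites around an exon of *Ywhaz*, the gene of the scaffold protein 14-3-3ζ, were recombined by the Cre recombinase of the *Ins1*-CreThor allele, and the study's methods describe the WT controls as Cre-positive littermates. In that allele Cre is knocked into the *Ins1* locus itself. The number of Cre alleles in each mouse was not given in the sources used here, so a difference in *Ins1* from the Cre allele and one from loss of 14-3-3ζ cannot be told apart.

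Mice carry a pair of nonallelic insulin genes. *Ins2* is the ancestral gene, with the same exon structure as human insulin, and *Ins1* is a copy made through an RNA intermediate that lost an intron. Both proinsulins are folded in the endoplasmic reticulum and cut in the secretory granule by the prohormone convertases. IAPP, or amylin, is a separate peptide that β cells process in the same granules and release with insulin, and mouse δ cells are also known to express it.

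*Ins1* (ENSMUSG00000035804) lies on the forward strand at chr19:52264297-52265476 and has 2 exons (GRCm38, GENCODE vM21). *Ins2* (ENSMUSG00000000215) is annotated on the reverse strand at chr7:142678656-142743381, a span that covers its 9 annotated transcripts, and the insulin transcript used here has 3 exons. *Iapp* (ENSMUSG00000041681) is on the forward strand at chr6:142298423-142303961 with 3 exons, and overlaps *Slco1a5* on the other strand. Because the measure turns on telling the insulin genes apart, the start and the end of both coding sequences are shown, with the differing bases in capitals.
*Ins1* coding bases 1 to 75: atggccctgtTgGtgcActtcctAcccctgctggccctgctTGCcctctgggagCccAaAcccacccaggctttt
*Ins2* coding bases 1 to 75: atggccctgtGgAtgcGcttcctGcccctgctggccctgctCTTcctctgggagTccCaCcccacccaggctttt
*Ins1* coding bases 220 to 327: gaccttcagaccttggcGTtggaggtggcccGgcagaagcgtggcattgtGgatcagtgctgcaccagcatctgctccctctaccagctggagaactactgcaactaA
*Ins2* coding bases 226 to 333: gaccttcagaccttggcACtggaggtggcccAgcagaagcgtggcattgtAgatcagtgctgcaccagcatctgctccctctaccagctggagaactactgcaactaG

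The coding sequences, of 327 and 333 bases, were identical at 303 of 333 aligned positions (91.0%), with 24 differing bases and 6 gap positions. The longest stretch shared by the transcripts was 56 bases. Of the 963 windows of 100 bases in the *Ins1* transcript, a length equal to the sequenced reads, 0 were found in another gene and 0 came within 2 mismatches of *Ins2*. On these sequences, a full-length read of *Ins1* differs from *Ins2*. How the authors' counting treated shorter alignments was not examined.

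The 250 bases before the start of *Ins1* and *Iapp* are shown because the regulators described further on act at such promoters. Sequences are from RefSeq (GRCm38.p6), where 2 of the 3 genes had an entry, and *Ins2* did not. Capitals mark TAAT, the core of homeodomain sites, and CATCTG, an E-box, on either strand.
*Ins1* chr19:52264047-52264296, forward strand: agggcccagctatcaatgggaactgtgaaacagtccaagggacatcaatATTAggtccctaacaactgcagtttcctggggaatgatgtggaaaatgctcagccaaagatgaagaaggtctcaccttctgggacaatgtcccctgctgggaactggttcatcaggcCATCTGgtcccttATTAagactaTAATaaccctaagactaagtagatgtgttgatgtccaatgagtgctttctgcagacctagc
*Iapp* chr6:142298175-142298424, forward strand: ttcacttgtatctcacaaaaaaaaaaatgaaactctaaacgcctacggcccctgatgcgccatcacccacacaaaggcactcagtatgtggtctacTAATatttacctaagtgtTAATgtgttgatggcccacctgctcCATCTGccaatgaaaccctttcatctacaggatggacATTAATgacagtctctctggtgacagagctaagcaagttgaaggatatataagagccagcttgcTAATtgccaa

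The *Ins1* window held 3 matches to TAAT and 1 to CATCTG. The *Iapp* window held 5 and 1, with 2 of the TAAT matches overlapping each other on opposite strands. TGCTGA, a core of MAF sites, had 0 matches in both. Of 32851 promoters of the same length, 54.9% held TAAT, 14.4% held CATCTG, and 16.1% held TGCTGA on either strand, so these short matches are a description only.

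Total UMIs per library ran from 74083947 to 98294915, and median UMIs per insulin-rich cell were 44762, 2444, and 13041 in WT and 22720, 10087, and 2416 in KO libraries 1 to 3. Cells under 5000 UMIs made up 55.3% of insulin-rich cells, so values are also given for the 6323 deeper cells. *Ywhaz* was 139, 152, and 147 CPM (UMIs divided by the library total and put on 1 scale for all libraries) in WT and 20.4, 31.7, and 21.0 CPM in KO insulin-rich sums (log2 fold change −2.59 ± 0.17 SE, adjusted *P* = 0.00325 by the quasi-likelihood test of edgeR with the Benjamini-Hochberg correction), which matched the labels. Of the deeper cells, 88.2%, 93.3%, and 92.7% held a *Ywhaz* UMI in WT and 44.8%, 36.5%, and 47.3% in KO. These 3′ libraries mostly read transcript ends and not the deleted exon. All 10 β cell markers were at 10 CPM or more in every insulin-rich sum, with summed levels of 1699 to 2547 CPM in WT and 2074 to 2267 CPM in KO. The same sums also held markers of other islet cells. For α cells their summed levels were 1140 to 3976 CPM in WT and 2372 to 4659 CPM in KO. For δ cells they were 1134 to 2040 CPM in WT and 1725 to 2147 CPM in KO. For *Ppy* cells they were 1452 to 6044 CPM in WT and 2694 to 6458 CPM in KO. The β cell markers thus do not show that these sums held β cells only. Of the barcode sequences of insulin-rich cells, 24 occurred in more than 1 library.

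WT library 1 stood apart from WT libraries 2 and 3. It had the fewest insulin-rich cells and the highest insulin content, at 50.6% of UMIs against 41.0% and 41.6% in WT libraries 2 and 3. Of its 749 insulin-rich cells, 189 fell in a cluster in which insulin made up 74.6% of its UMIs, against 47 to 118 cells in the other libraries. It also had the lowest levels of other islet hormones in insulin-rich sums, at 507 CPM of *Gcg*, 766 CPM of *Ppy*, and 890 CPM of *Sst*. The part of these differences in the results was not tested, and results are given with and without this library.

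*Ins1* was lower relative to *Ins2* in every KO library than in any WT library. Summed over insulin-rich cells, there were 0.220, 0.381, and 0.366 *Ins1* UMIs per *Ins2* UMI in the WT libraries and 0.188, 0.179, and 0.184 in the KO libraries, each in the order 1 to 3. The KO libraries lay close together, whereas WT library 1 lay nearer to the KO libraries than to the other WT libraries. As a share of insulin UMIs, *Ins1* was 18.0%, 27.6%, and 26.8% in WT and 15.8%, 15.2%, and 15.6% in KO (24.1% ± 5.29 against 15.5% ± 0.326, SD, *n* = 3 each). UMIs count transcript ends, so the ratio compares molecules without a correction for length.

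The log2 ratio was lower in KO by 0.77 on average (difference −0.77, *P* = 0.1, 2-sided exact permutation test). With 3 libraries against 3, 0.1 is the smallest *P* this test can give, so the design cannot pass 0.05. The mean ratio in WT was 1.75-fold that in KO. Without WT library 1 it was 2.03-fold, and the ratio of WT library 1 alone was 1.20-fold the KO mean. Across all 7105 genes tested in insulin-rich cells, 10.3% had levels that did not overlap between genotypes, 5.77% with lower and 4.49% with higher values in KO. The share of *Ins1* also did not overlap among deeper cells (18.0%, 27.7%, and 26.8% against 15.8%, 15.3%, and 15.6%) or among shallower cells (17.4%, 27.0%, and 26.1% against 15.2%, 13.4%, and 14.6%). The shallower value of WT library 1 came from only 23 cells.

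**Figure D1:**
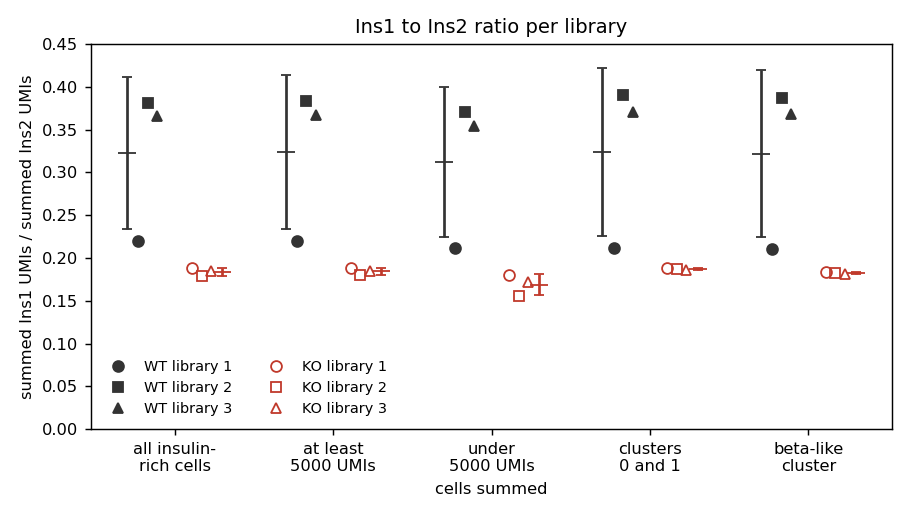
Ratio of Ins1 to Ins2 UMIs (y axis, UMIs per UMI) in each WT (filled) and KO (open) library, with the mean and SD of 3 libraries, for all insulin-rich cells, cells over and under 5000 UMIs, clusters 0 and 1, and the cluster named β cell–like (x axis). In all 5 sets the KO points lie below the WT points, and in all insulin-rich cells they lie at 0.179 to 0.188 against 0.220, 0.366, and 0.381.

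The levels of the genes show which of them differed. Per 1000 UMIs of other genes, a scale that leaves the 3 genes out of the denominator, *Ins1* stood at 199, 204, and 204 in WT and 126, 117, and 113 in KO (202 ± 2.99 against 118 ± 6.90, SD, *n* = 3 each, *P* = 0.1, 2-sided exact permutation test). All WT libraries, library 1 included, were above all KO libraries. *Ins2* stood at 902, 535, and 556 in WT and 671, 651, and 612 in KO, so KO values lay inside the WT range (*P* = 1, *n* = 3 each, 2-sided exact permutation test). WT library 1 had the highest *Ins2* level and the other WT libraries the lowest. In these sums its low ratio came with a high *Ins2* level and an *Ins1* level close to that of its group.

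That reading depends on which cells are taken. In clusters 0 and 1, which held 2719 and 1755 insulin-rich cells at median depths of 32916 and 29693 UMIs, an alternative chosen after the data were seen, *Ins1* stood at 134, 213, and 196 per 1000 other UMIs in WT and 117, 133, and 116 in KO. There the *Ins1* level of WT library 1 was next to the KO values, and the groups were separated by about 1 unit. *Ins2* stood at 634, 546, and 530 in WT and 621, 710, and 623 in KO in those clusters, so the *Ins2* level of WT library 1 lay inside the KO range. Cluster 1 was the single cluster named β cell–like by its markers. Taken whole, without the 25% cutoff, it had *Ins1* levels of 201, 273, and 246 in WT and 136, 141, and 130 in KO. Its *Ins2* levels were 957, 706, and 670 in WT and 743, 774, and 715 in KO.

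*Iapp* stood at 74.2, 65.8, and 66.2 per 1000 other UMIs in WT and 65.6, 63.6, and 62.1 in KO (68.7 ± 4.75 against 63.8 ± 1.74, SD, *n* = 3 each, *P* = 0.1, 2-sided exact permutation test). The groups did not overlap, but the lowest WT and highest KO values lay within 1 unit of each other. In deeper cells they overlapped (*P* = 0.4, *n* = 3 each, exact permutation test). Relative to insulin, *Iapp* was 6.75%, 8.89%, and 8.72% of the insulin UMI number in WT and 8.23%, 8.29%, and 8.56% in KO, and the groups overlapped (8.12% ± 1.19 against 8.36% ± 0.178, *P* = 1, *n* = 3 each, 2-sided exact permutation test). WT library 1 had the lowest of the 6 values.

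**Figure D2:**
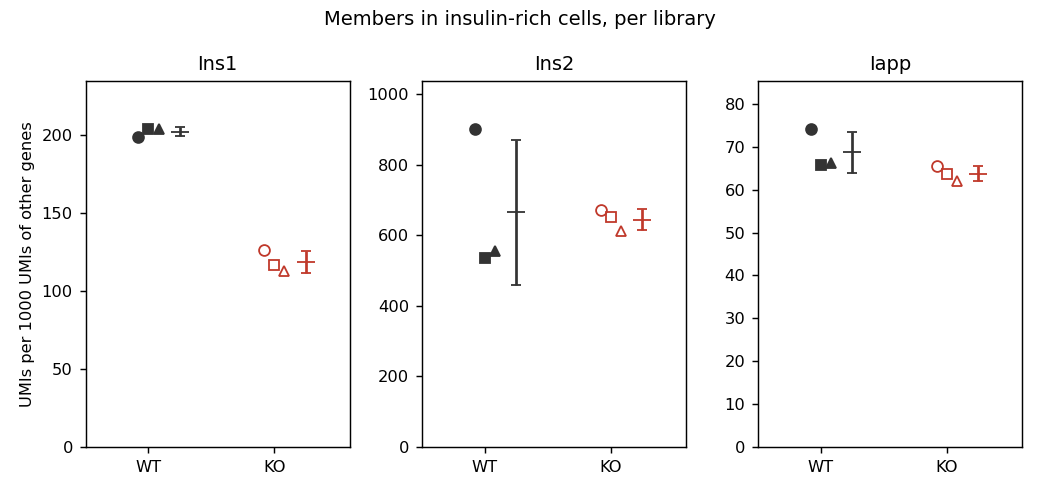
UMIs of Ins1, Ins2, and Iapp per 1000 UMIs of other genes (y axes, each from 0) in insulin-rich cells of the WT and KO libraries, with mean and SD of 3 libraries per group; marker shape gives the library number. Ins1 separates the genotypes (199 to 204 against 113 to 126), Ins2 does not, and Iapp values differ little.

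In the fit across all genes, none of the 3 genes passed the thresholds. The fit used the same cells, chosen by their insulin UMIs, so its *Ins1* and *Ins2* levels have the same limit. Normalized by TMM, a scaling of library totals, *Ins1* was 107380, 107050, and 104970 CPM in WT and 65905, 66981, and 58773 CPM in KO. Its log2 fold change was −0.74 ± 0.32 (SE), with an adjusted *P* of 0.943 (edgeR quasi-likelihood test, Benjamini-Hochberg adjustment; unadjusted *P* = 0.0529). By size this change ranked 11 among 7105 genes, and by unadjusted *P* 247. *Ins2* differed by −0.017 ± 0.56 (adjusted *P* = 0.999) and *Iapp* by −0.077 ± 0.25 (adjusted *P* = 0.980, both from edgeR with Benjamini-Hochberg adjustment). The background was 1 gene called of 7105 (0.0141%), which was *Ywhaz*, and 224 genes (3.15%) had an unadjusted *P* under 0.05.

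The call for *Ins1* depended on the tool. DESeq2 on the same sums called 14 genes (0.197%), 11 lower and 3 higher in KO, and *Ins1* was among them with the same log2 fold change of −0.74 (adjusted *P* = 4.8e-11, DESeq2). Without TMM scaling, edgeR called 10 genes, and *Ins1* was among these as well (log2 fold change −0.70, adjusted *P* = 0.00292 after Benjamini-Hochberg adjustment).

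Within single cells the share of *Ins1* followed the library. The median over insulin-rich cells was 17.9%, 27.1%, and 26.5% in WT and 15.4%, 13.9%, and 14.8% in KO (difference −9.16 percentage points, *P* = 0.1, *n* = 3 each, 2-sided exact permutation test). In WT libraries 2 and 3, 73.2% and 67.4% of the deeper cells took at least 25% of their insulin UMIs from *Ins1*. In WT library 1 this share of cells was 1.52%, and in KO libraries 1 to 3 it was 1.16%, 0.791%, and 0.670%. At a level of 20%, over cells with at least 500 insulin UMIs, WT library 1 stood above the KO libraries, with 168 of 741 cells. KO libraries 1 to 3 held 112 of 1328, 107 of 2265, and 80 of 2681. WT libraries 2 and 3 held 4263 of 4317 and 1235 of 1325. How far WT library 1 stood above the KO libraries thus depended on the level chosen. At both levels it lay nearer to the KO libraries than to WT libraries 2 and 3.

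Cells of a library differed in the share by more than counting error. Over cells with at least 500 insulin UMIs, the SD beyond the binomial SD was 3.41, 2.15, and 4.31 percentage points in WT and 3.47, 2.81, and 2.34 in KO. The genotypes overlapped (3.29 ± 1.09 against 2.87 ± 0.565, *P* = 0.7, *n* = 3 each, 2-sided exact permutation test). The order of the libraries depended on depth. Among the deeper of these cells the values were 3.44, 4.59, and 5.09 in WT and 3.73, 3.14, and 3.62 in KO. WT library 2, lowest over all depths, there lay above every KO library. Among the shallower cells they were 2.28, 0.662, and 1.45 in WT and 1.37, 1.19, and 0.692 in KO. The WT library 1 value there came from 15 cells. The genotypes overlapped at both depths. A small set of 15 deeper cells had an *Ins1* share under 3%, a level chosen after the values were seen. WT libraries held 4, 0, and 0 of them and KO libraries 4, 3, and 4. These cells held 22 to 315 *Ins1* UMIs beside 3703 to 25794 *Ins2* UMIs, and 13663 to 47445 UMIs in all. The counts of 0 among 872 and 918 cells allow shares of up to 0.344% and 0.327%, for counting error only.

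**Figure D3:**
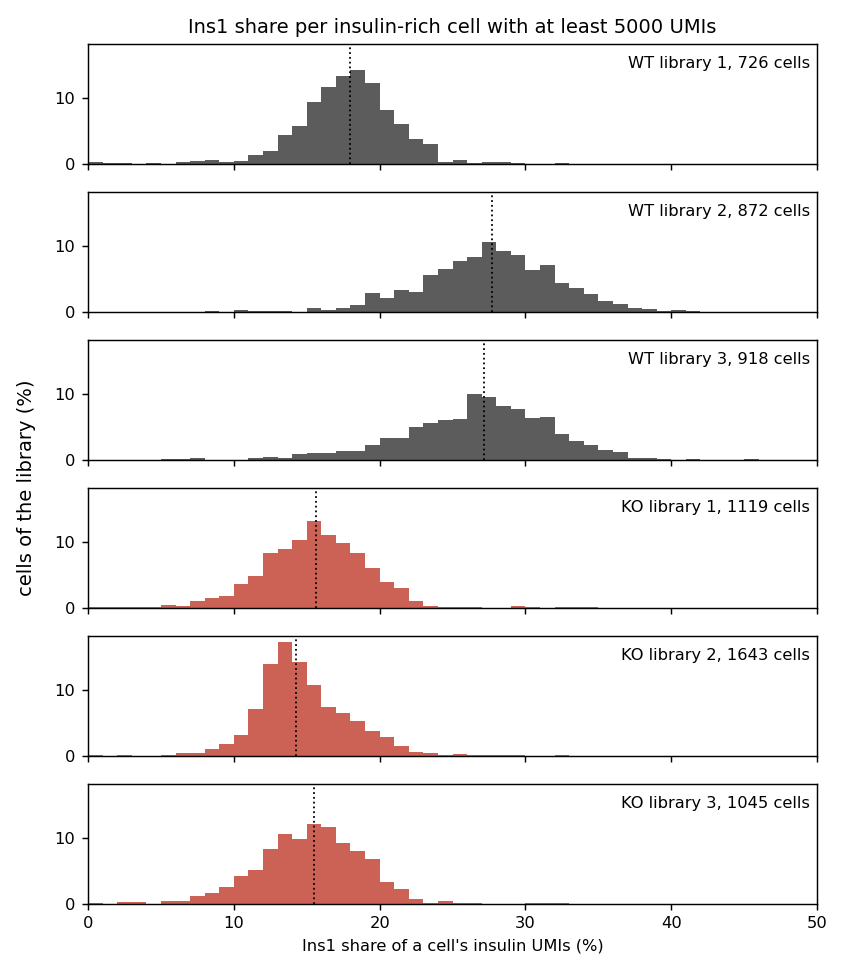
Histograms of the Ins1 share of insulin UMIs (x axis, percent) over insulin-rich cells with at least 5000 UMIs, 1 panel per library, as percent of its cells (y axis), with the median as a dotted line. The medians are 27.7% and 27.1% in WT libraries 2 and 3, 18.0% in WT library 1, and 14.3% to 15.7% in the KO libraries.

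Across deeper cells of each library, *Ins1* and *Ins2* per UMI of other genes rose and fell together, with Spearman's rho of 0.857 to 0.932 over 726 to 1643 cells. The values share a denominator and a library and are a description. *Ins1* and *Iapp* were less closely tied, at 0.300 to 0.634. The share of *Ins1* had a rho of 0.107 to 0.356 with the percent of UMIs from insulin.

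*Iapp* rose with insulin from cell to cell, but by less than in proportion. In deeper cells with 25% to 35% of UMIs from insulin, *Iapp* was 11.2% to 12.8% of the insulin UMI number over the 6 libraries. In those with at least 65%, it was 2.73% to 3.99%. Over the same bins, *Iapp* per 1000 other UMIs went from 50.0 to 59.3 up to 79.9 to 119. Cells with more insulin thus had more *Iapp* per other UMI and less *Iapp* per insulin UMI in every library. The number of detected genes also differed between bins. Outside KO library 2, its median per library was 5307 to 6135 at 25% to 35%. At 65% or more it was 2080 to 2821 over all libraries. In KO library 2 the median was 2124.5 at 25% to 35%, 4176 at 35% to 45%, and 2080 at 65% or more. The part of detected genes in the *Iapp* pattern was not tested. The bins use the insulin UMIs that are also the denominator, so this is a description.

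Both measures differed with depth within libraries. The *Ins1* share was higher in deeper than in shallower cells in 6 of 6 libraries, by 0.911 percentage points on average (0.614 to 1.85, *P* = 0.03125, 2-sided exact sign-flip permutation test over 6 libraries, the smallest it can give). *Iapp* relative to insulin was lower in deeper cells in 6 of 6 libraries, by −2.52 percentage points (*P* = 0.03125, the same exact test). WT library 1 held only 23 shallower cells, against 626 to 3761 in the other libraries.

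The insulin genes were also found in cells that should not express them. Every cell of the 7 other types compared (α-, δ-, endothelial-, stellate-, macrophage-, B-, and T cell–like, without their insulin-rich cells) held at least 1 insulin UMI. Insulin made up a mean of 3.18% to 7.20% of UMIs by type. B and T cells are not known to express insulin, and the UMIs in these types are called background here. Whether they came from free RNA in droplets or from doublets left after filtering was not tested. In α-like cells *Gcg* averaged 183787 CPM and *Ppy* 36574 CPM. In δ-like cells *Sst* averaged 82078 CPM, beside 36390 CPM of *Ppy* and 26021 CPM of *Gcg*, so these cells also held other islet hormones.

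The percent of UMIs from insulin had a higher mean in KO in all 7 types, by 0.777 to 3.09 percentage points, and the test between genotypes was not passed in any (adjusted *P* = 0.6 in all 7, exact permutation test, *n* = 3 each). With same-numbered libraries taken as pairs, KO was higher in 3 of 3 pairs in 5 types (δ-, endothelial-, macrophage-, B, and T cell–like) and in 2 of 3 pairs in the others. T cell–like cells held 1.499%, 9.24%, and 5.46% in WT and 5.94%, 12.7%, and 6.63% in KO. These values came from 119, 486, and 10 cells in WT and 14, 1154, and 72 cells in KO. B cell–like cells numbered 29 in WT library 3 and 13 in KO library 1, so some of the pairs rest on few cells. The exact sign-flip permutation test over 3 pairs cannot go below 0.25, and the adjusted *P* was 0.35 in those 5 types.

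The *Ins1* share of this background followed that of its library. Pooled over the 7 types, the *Ins1* share was 15.1%, 25.1%, and 24.6% in WT and 13.02%, 13.11%, and 13.03% in KO. The order of the WT libraries was that of the insulin-rich cells, with WT library 1 lowest. The difference of KO from WT ran from −9.41 to −7.93 percentage points by type, without overlap in any (*P* = 0.1 in each, *n* = 3 each, exact permutation test). The background shares its libraries with the insulin-rich cells and is no independent measurement of the difference.

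The background did not match the insulin-rich cells exactly. In 7 of 7 types the *Ins1* share was below that of the insulin-rich cells in 6 of 6 libraries. The difference ran from −1.503 percentage points in stellate-like cells to −2.97 in δ-like cells (adjusted *P* = 0.03125 for each, exact sign-flip permutation test, Benjamini-Hochberg over 7 types). *Iapp* per *Ins2* UMI was higher in the background, by 1.41- to 1.64-fold in the 6 types other than δ-like cells (adjusted *P* = 0.03125 for each, same exact test). Insulin-rich cells were chosen by their insulin UMIs, which include this denominator, and the part of that choice in the difference was not tested. In every library the ratio in gated cells was lower with a gate of 40% than with 10% (0.0648 against 0.0899 in WT library 1).

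**Figure D4:**
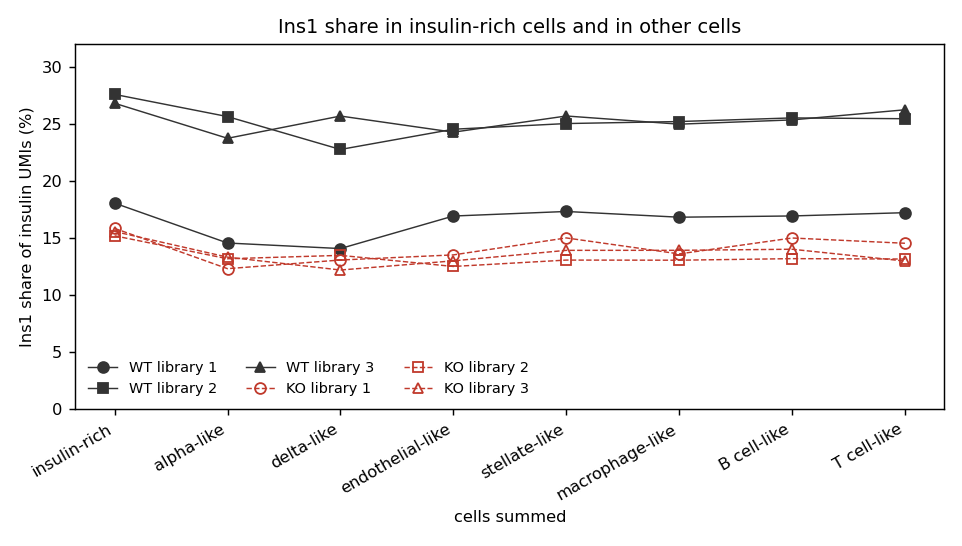
Ins1 share of insulin UMIs (percent) in insulin-rich cells and in 7 other cell types, 1 point per library. In each type the 3 KO libraries lie below the 3 WT libraries, and the mean difference from the insulin-rich cells is −2.97 to −1.503 percentage points by type. Lines join the values of 1 library.

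*Iapp* per *Ins2* UMI in δ-like cells stood above that of the other types. There were 1.13, 0.797, and 1.07 *Iapp* UMIs per *Ins2* UMI in WT δ-like cells and 0.831, 0.585, and 0.679 in KO, against 0.0823 to 0.123 in insulin-rich cells. This was 8.05-fold above insulin-rich cells and 4.91- to 5.70-fold above each of the other 6 types (adjusted *P* = 0.03125 for each, exact sign-flip permutation test over 6 libraries). The comparison with insulin-rich cells has the same limit, since those cells were chosen by their insulin UMIs. The level of *Iapp* was 24538 ± 1605 CPM in δ-like cells, 35257 ± 917 CPM in insulin-rich cells, and 5342 ± 1815 CPM in α-like cells (SD, *n* = 6). The α-like level did not exceed those of B and T cell–like cells, at 8290 ± 3246 and 7967 ± 3285 CPM. These types differed in depth, with a median per library of 12596 to 25021 UMIs in α-like and 3867 to 5735 in B and T cell–like cells. Levels were not compared at equal depth, so whether α-like cells held more *Iapp* than background was not tested.

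**Figure D5:**
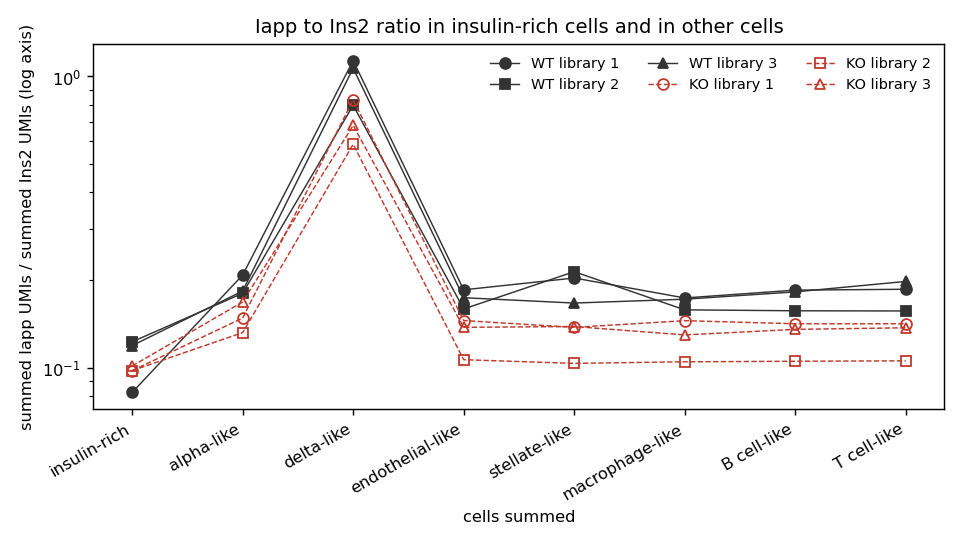
Iapp UMIs per Ins2 UMI (y axis, log scale) in insulin-rich cells and 7 other cell types, 1 point per library. δ-like cells lie at 0.585 to 1.13, above every other type in each library. Lines join the values of 1 library.

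Genes with a like pattern were sought over 48 sums (8 cell groups in 6 libraries) among 6660 genes, by Pearson's r of log2 CPM. For *Ins1* they were *Ins2* (0.948), *Ucn3* (0.936), a peptide of mature β cells, and *Mafa* (0.929), a β cell transcription factor. For *Ins2* they were *Ins1*, *Mafa* (0.934), and *Sytl4* (0.934), which encodes the granule protein granuphilin. For *Iapp* they were *Rasgrf1* (0.962), *Zdhhc2* (0.944), and *Vstm2l* (0.938). *Iapp* ranked only 17 for *Ins1* (r = 0.783). The sums share libraries and cell groups, and r describes them without a test. The insulin-rich group was chosen by *Ins1* and *Ins2*, and the other groups left such cells out. The r between *Ins1* and *Ins2* was therefore largely set by how the groups were formed.

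A second likeness was taken within libraries, as Spearman's rho over deeper cells between the *Ins1* share and each of 7527 genes. Its mean over libraries lay between −0.156 and 0.133 for the genes from the 1st to the 99th percentile. The highest were *G6pc2* (0.31), a glucose-6-phosphatase subunit of β cells, *Cpe* (0.28), the carboxypeptidase that trims prohormones, *Ero1lb* (0.23), an oxidase of proinsulin folding, *Pcsk2* (0.22), a prohormone convertase, and *Gng12* (0.21). The lowest were the metallothioneins *Mt1* (−0.29) and *Mt2* (−0.25), the stress-induced regulators *Ddit3* (−0.27) and *Nupr1* (−0.24), and the ribosomal protein gene *Rps15a* (−0.26). These 10 genes were taken only from the 676 genes with the same sign in 6 of 6 libraries, so that agreement was a condition of being listed. *Iapp* had 0.12. All these values are weak to moderate and are descriptions.

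Regulators of insulin gene transcription were then counted. Of 20 listed genes, 17 passed the filter on low counts and were tested. None was called by edgeR (0 of 17, with 0 at an unadjusted *P* under 0.05) or by DESeq2 (0 of 17), where 0.0141% and 0.197% of all 7105 genes were called and 3.15% had such an unadjusted *P*. The values were below WT for 11 and above it for 6, and their median log2 fold change was −0.055, against 0.0043 over all genes. Without WT library 1, these numbers were 13 and 4, and the median was −0.088, against 0.0061 over all genes. *Rfx6*, an islet transcription factor, had the lowest unadjusted *P*, at 40.5, 41.1, and 40.7 CPM in WT and 37.7, 29.3, and 38.5 CPM in KO (−0.21 ± 0.11), without overlap, as for 10.3% of all genes. *Glis3* and *Pax6*, which act at the insulin promoter, differed by −0.17 ± 0.09 and −0.11 ± 0.09.

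Genes of proinsulin and pro-IAPP folding, processing, and granules were all tested (25 of 25), and 0 were called by edgeR (4 at an unadjusted *P* under 0.05) or by DESeq2. Over all genes, 0.0141% and 0.197% were called and 3.15% had such an unadjusted *P*. KO values were below WT for 18 genes and above it for 7, and the median log2 fold change was −0.097. Without WT library 1, these numbers were 13 and 12, and the median was −0.0040. *Pdia4*, a disulfide isomerase, was 106, 89.7, and 85.3 CPM in WT and 76.4, 70.01, and 72.7 CPM in KO, without overlap, as for 10.3% of all genes (−0.36 ± 0.10). *Hspa5*, the chaperone BiP, was 1747, 894, and 1060 CPM in WT and 895, 630, and 812 CPM in KO, with WT library 1 far above the rest (−0.66 ± 0.25). *Sec61a1*, a subunit of the translocation channel, differed by −0.18 ± 0.07. The adjusted *P* was 0.943 for each of these 3 genes (edgeR, Benjamini-Hochberg).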

How the data were processed

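Islet cells of both genotypes, WT and β14-3-3ζ–KO, were profiled in 3 Chromium 3′ libraries each. The authors deposited raw UMI counts per gene and barcode for each library, without normalization. The submitters' processing notes name Cell Ranger 6.0.2, Seurat, and mm10. All files were per library, and 0 columns of other samples were used.

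Barcodes with under 500 genes (3485 of 43445), over 10% mitochondrial UMIs (12956), or called as doublets by Scrublet in Scanpy (1437) were left out. Scrublet's automatic threshold was used in KO library 2, and in the others the top-scored 0.8% per 1000 barcodes were removed. Cells were clustered with 2000 variable genes, 30 components, 15 neighbours, and Leiden resolution 1. A cluster took the type with the largest share of raised markers (at least 3, in at least 10% of cells, 1.5-fold), with a median of at least 3500 UMIs, unless its top 10 genes favoured another type. This rule was revised after the clusters were seen.

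Counts were summed per library. Genes with a UMI in over 15% of insulin-rich cells of either genotype (7105) were tested with edgeR's quasi-likelihood method and called where the adjusted *P* was under 0.05 and the log2 fold change was above 0.1 in size. Single values were compared by exact permutation tests. The main tests between genotypes were not paired. Deviations of same-numbered libraries correlated at 0.439, 0.523, and 0.416. Replicate numbers were therefore taken as pairs in an alternative and in a check of insulin UMIs in other types. The study describes 3 mice per genotype, but the labels do not tie each library to 1 mouse, so *P* values measure the spread between libraries. No pair of libraries of the same genotype agreed within sampling noise.

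Members and lists were chosen with earlier results of these data known. Named genes were the 3 genes, *Ywhaz*, the other islet hormones, the 3 genes of each list with the lowest *P*, the 3 genes most like each member over cell groups, and the 5 at each end of the correlation with the *Ins1* share. *Ero1b* was matched as *Ero1lb*. Scripts were tested on simulated data. Tools were R 4.3.3 with edgeR 4.0.16 and DESeq2 1.42.0, and Scanpy 1.11.5 with leidenalg 0.10.2, pandas 2.3.3, SciPy 1.17.1, NumPy 2.4.6, and matplotlib 3.10.9 in Python 3.11.15. Alternatives covered the insulin gate, depth, doublets, the mitochondrial limit, normalization, and each library left out.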

Additional observations from a re-analysis of the deposited data

How the results depend on the processing

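Of 352 alternative values, 248 kept their direction and side of the threshold (counts stayed within 1.5 times), 84 kept direction but not the threshold, 2 passed it, 4 counts moved by more than 1.5 times, and 14 changed sign. The *Ins1* to *Ins2* ratio was lower in KO under all its alternatives, with a log2 difference of −1.02 to −0.63 when 1 library was left out. Pairing by replicate number (replicate block) left it at −0.77 (exact sign-flip *P* = 0.25, the smallest for 3 pairs) and *Ins1* at −0.74 (edgeR adjusted *P* = 0.602), and changed no call. The *Ins1* level passed the threshold with DESeq2 (−0.74) and without TMM (−0.70). The number of genes called was 0 with an insulin gate of 10% and in cells under 5000 UMIs, 14 with DESeq2, and 10 without TMM. The log2 *Iapp* to insulin difference turned to −0.052 in clusters 0 and 1, −0.14 under 5000 UMIs, and −0.075 without WT library 1 (−0.075 to 0.12 over the libraries left out). The spread over cells turned to 0.090 without WT library 3 (−0.99 to 0.090). The *Ins2* log2 fold change turned to 0.066 without KO cells holding a *Ywhaz* UMI, 0.23 in clusters 0 and 1, 0.082 under 5000 UMIs, 0.29 without WT library 1, 0.039 without KO library 3 (−0.16 to 0.29), 0.031 with the replicate block, and 0.059 without TMM. *Iapp* turned to 0.026 in clusters 0 and 1 and 0.0021 without WT library 1 (−0.12 to 0.0021). The KO minus WT difference in the percent of insulin UMIs in α-like cells turned to −0.154 without KO library 2 (−0.154 to 2.03). The cause was not tested. The alternatives in clusters 0 and 1 and under 5000 UMIs, and the pairing of insulin UMIs in other types, were chosen after seeing the data.

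With 1 library left out, 5 libraries cannot give an exact sign-flip *P* under 0.0625, so the comparisons of other cell types with insulin-rich cells lose the threshold by construction and keep their direction. The *Ins1* share then differed by −2.87 to −2.55 points in α-, −3.33 to −2.59 in δ-, −2.64 to −2.25 in endothelial-, −1.66 to −1.29 in stellate-, −2.05 to −1.82 in macrophage-, −1.64 to −1.40 in B, and −1.78 to −1.38 in T cell–like cells. The log2 *Iapp* to *Ins2* difference was 0.59 to 0.77, 2.85 to 3.095, 0.41 to 0.62, 0.46 to 0.71, 0.38 to 0.58, 0.41 to 0.62, and 0.43 to 0.65 in the same order. With 3 libraries per genotype, no permutation test between genotypes can pass 0.05.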

Other observations

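Barcodes over the mitochondrial maximum that were insulin-rich otherwise had a lower *Ins1* share than the kept insulin-rich cells in 6 of 6 libraries, by −1.13 percentage points on average (*P* = 0.03125, 2-sided exact sign-flip permutation test over 6 libraries). Their *Iapp* relative to insulin was higher in 5 of 6 libraries (0.677 points, *P* = 0.1875, the same exact test). Among deeper KO insulin-rich cells, those without a *Ywhaz* UMI differed in *Ins1* share from those with one by 0.787, −0.112, and −0.0485 points in KO libraries 1 to 3 (mean 0.209, *P* = 1, exact sign-flip test over 3 libraries, which cannot go below 0.25). Their *Iapp* relative to insulin was lower in 3 of 3 libraries (−0.717 points, *P* = 0.25, the same exact test). A missing UMI does not show that *Ywhaz* was deleted in that cell.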
